A study of Mus musculus with 6 samples.

Results

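The interleukin-12 family and its signalling genes were followed in RNA of sorted regulatory T cells (Tregs), lymphocytes that hold immune responses in check. The set was the 9 genes Il12a, Il12b, Il23a, Il27, Ebi3, Il12rb1, Il12rb2, Il27ra and Stat4, taken by symbol from a table of 51361 genes, and all 9 were found there. Cells were sorted as CD4+CD25+Foxp3+ from 9-week-old male C57BL/6N mice, all carrying the Foxp3 reporter allele Tg(Foxp3-DTR/EGFP)23.2Spar, in which Foxp3 regulatory sequence drives a diphtheria toxin receptor and EGFP. Every group, the sham group included, shares this allele. The 3 groups, of 2 libraries each, were tMCAO brain (cells from the brain 14 days after a 60 min transient occlusion of the middle cerebral artery, a model of ischaemic stroke), tMCAO blood (cells from blood after the same operation) and sham blood (cells from blood of sham-operated mice). Each library was made from 500 to 1000 cells, and the labels do not say whether separate mice gave the 2 libraries. The p-values therefore describe library-to-library spread, which may be technical.

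Cytokines of this family are pairs of a helical subunit and a receptor-like subunit. Il12b encodes p40, which pairs with the product of Il12a to form IL-12 and with that of Il23a to form IL-23. Ebi3 pairs with the product of Il27 to form IL-27, and with that of Il12a to form IL-35, a cytokine described in mouse Tregs. IL-12 and IL-23 come mainly from activated dendritic cells, macrophages and microglia, and IL-12 acts on T cells and natural killer cells through Il12rb1 and Il12rb2 to STAT4, which drives interferon-gamma transcription. IL-27 acts through Il27ra together with gp130, the product of Il6st.

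The libraries held unequal amounts of T cell RNA and of RNA of other cells. Totals lay between 14348179 and 24460894 counts, so that 1 CPM, the unit of level used here (counts scaled to a common library size), stood for 14.2 to 24.5 counts. The 17 T cell markers made up 0.0302% and 0.158% (tMCAO brain), 0.0713% and 0.469% (tMCAO blood) and 0.917% and 0.884% (sham blood) of counts, and none of them was at 0 in any library. Foxp3, which defines the sorted cells, stood at 0.726 and 19.6 CPM (tMCAO brain), 0.538 and 5.18 CPM (tMCAO blood) and 50.1 and 60.7 CPM (sham blood). The 6 Treg markers, Foxp3 among them, made up 0.00563% and 0.0412% (tMCAO brain), 0.0137% and 0.0945% (tMCAO blood) and 0.158% and 0.157% (sham blood) of counts. The 10 microglia markers made up 0.755% and 0.836% (tMCAO brain), 0.0115% and 0.0155% (tMCAO blood) and 0.0207% and 0.0266% (sham blood) of counts, with 1 or 2 of them at 0 in each blood library. For 10 monocyte and macrophage markers the shares were 3.48% and 1.53% (tMCAO brain), 2.64% and 0.928% (tMCAO blood) and 0.702% and 0.560% (sham blood). For 11 dendritic cell markers they were 0.0820% and 0.177% (tMCAO brain), 0.00515% and 0.0109% (tMCAO blood) and 0.0568% and 0.0748% (sham blood), with 1 or 2 of them at 0 in each blood library. Among these 11, Ccr7 stood at 589.1 and 746.2 CPM (tMCAO brain), 3.61 and 41.1 CPM (tMCAO blood) and 491.7 and 674.8 CPM (sham blood). The next highest in sham blood, Relb, stood there at 29.97 and 41.3 CPM, and Flt3 at 3.02 and 3.03 CPM. For 6 red cell markers the shares were 8.06e-05% and 0% (tMCAO brain), 0.107% and 3.80% (tMCAO blood) and 15.1% and 16.4% (sham blood). For 6 neutrophil markers they were 0.140% and 0.00935% (tMCAO brain), 0.0267% and 0.698% (tMCAO blood) and 1.31e-05% and 6.97e-05% (sham blood). For 7 B cell and plasma cell markers they were 0.00265% and 0.309% (tMCAO brain), 0.00383% and 0.0137% (tMCAO blood) and 0.00783% and 0.0181% (sham blood). The part of these shares in the results was not tested. In bulk RNA, fewer cells of a type and less RNA per cell cannot be told apart.

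Among the cytokine subunit genes, 3 rose in tMCAO brain against both blood groups, Il12b, Il23a and Ebi3, whereas Il12a and Il27 did not pass the test in any comparison. Il12b (chromosome 11, 44400063 to 44414033, plus strand, GRCm38, protein-coding) had 1011 and 7945 counts (tMCAO brain), or 61.2 and 324.5 CPM, and 0 counts in each of the tMCAO blood and sham blood libraries. With a floor of 3 counts over both libraries of a blood group, and the counts of both brain libraries summed, most of them from library 2, tMCAO brain was at least 2813-fold higher than tMCAO blood (edgeR adjusted p = 0.0343) and at least 2169-fold higher than sham blood (edgeR adjusted p = 0.0232). The brain libraries differed from each other, library 2 standing well above library 1. The tMCAO brain against tMCAO blood call was lost without either tMCAO blood library (adjusted p = 0.0806 and 0.0839) or either sham library (0.0707 and 0.0664). The call against sham blood was lost without either sham library (0.13 and 0.124), and both calls were lost by limma-voom (adjusted p = 0.058 and 0.0579).

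The 250 bases upstream of the Il12b start are shown because this gene had the highest log2 change of the 9 in both brain comparisons. They span chr11:44399813-44400062 on the plus strand, from RefSeq on GRCm38.p6, and capitals mark matches to the motifs searched.
Il12b: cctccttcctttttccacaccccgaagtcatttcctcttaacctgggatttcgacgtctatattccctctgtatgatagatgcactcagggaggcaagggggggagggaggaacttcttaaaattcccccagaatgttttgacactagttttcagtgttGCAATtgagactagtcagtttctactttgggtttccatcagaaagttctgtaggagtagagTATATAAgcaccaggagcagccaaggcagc
Capitals here mark GCAAT, one arm of the palindromic site of C/EBP factors, 91 to 87 bases before the start, and the sequence TATATAA, which matches the letters of the TATA box, 30 to 24 bases before it. The letters searched, on both strands, were GCAAT for C/EBP, TGANTCA for AP-1 and TATANAA for the TATA box. The NF-kB search asked for GGG followed by any 5 bases and then CC. The interferon-stimulated response element search asked for GAAA at either end of any 2 bases. Among 32851 mouse promoter windows of this length, 45.8% held the NF-kB letters, 23.1% the C/EBP letters, 6.75% the AP-1 letters, 2.98% the interferon element and 10.4% the TATA letters. These are matches of letters, and no binding was measured.

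Il23a (chromosome 10, 128296139 to 128298752, minus strand), encoding the p19 subunit of IL-23, had 108 and 106 counts (tMCAO brain), against 0 and 0 counts (tMCAO blood) and 0 and 2 counts (sham blood). On the CPM scale these were 6.53 and 4.33 (tMCAO brain), 0 and 0 (tMCAO blood), and 0 and 0.141 (sham blood). The groups did not overlap, and the brain libraries were close to each other. The level in tMCAO brain was at least 67.2-fold higher than in tMCAO blood (edgeR adjusted p = 0.0441) and 77.7-fold that of sham blood (95% counting interval 21.3 to 646, edgeR adjusted p = 0.0446). The first call was lost without any 1 of the 6 libraries (adjusted p = 0.0862 to 0.111), and the second without either brain library (0.133 and 0.0774) or either sham library (0.216 and 0.154). With the replicate number as a block, neither passed (0.056 and 0.0566).

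Ebi3 (chromosome 17, 55952640 to 55957022, plus strand), encoding the receptor-like subunit of IL-27 and IL-35, had the smallest standard errors of the members. It stood at 49.1 and 32.2 CPM (tMCAO brain), 9.04 and 7.62 CPM (tMCAO blood) and 15.1 and 14.0 CPM (sham blood). Both brain libraries lay above all 4 blood libraries. The tMCAO brain level was 4.87 times that of tMCAO blood (log2 change 2.28 ± 0.34 (SE), edgeR adjusted p = 0.0286) and 2.79 times that of sham blood (1.48 ± 0.33, edgeR adjusted p = 0.0429). Between tMCAO blood and sham blood the log2 change was -0.80 ± 0.33 with no overlap, and it did not pass (edgeR adjusted p = 0.169). The brain against tMCAO blood call was lost without any 1 of the 6 libraries (adjusted p = 0.0504 to 0.1) and with scaling to T cell markers (0.401), while its log2 change with 1 library left out stayed between 1.94 and 2.56. The brain against sham call was lost without any 1 library other than tMCAO blood library 1 (0.0504 to 0.284). Exons of Ebi3 overlap those of an antisense gene, Gm16712, and the strand setting of the counting is not given in the sources used here, so reads of overlapping genes cannot be told apart.

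The upstream sequence of Ebi3 is shown beside that of Il12b because both genes rose in tMCAO brain. It spans chr17:55952373-55952622 on the plus strand, from RefSeq on GRCm38.p6.
Ebi3: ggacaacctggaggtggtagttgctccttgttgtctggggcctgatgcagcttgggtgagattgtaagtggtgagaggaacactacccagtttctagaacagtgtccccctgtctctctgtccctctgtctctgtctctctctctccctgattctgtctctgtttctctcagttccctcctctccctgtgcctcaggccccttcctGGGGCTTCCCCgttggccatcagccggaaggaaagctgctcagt
The capitals mark a stretch 44 to 34 bases before the RefSeq start (position 55952623, upstream of the gene start given above) in which the NF-kB letters match in overlapping positions and on both strands, GGGGCTTCCC and GGGCTTCCCC. The other 4 motifs had no match in this window, and the NF-kB, AP-1 and interferon letters had none in the Il12b window. A missing match says only that these letters are not in these 250 bases. Of the 9 members, 5 had an entry in the promoter table. Matches were not limited to the members that rose. Il12a held the NF-kB letters upstream of a start and the C/EBP letters upstream of another. Stat4 held the NF-kB and interferon letters upstream of the same start, and the Il12rb2 window held no match.

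**Figure D1:**
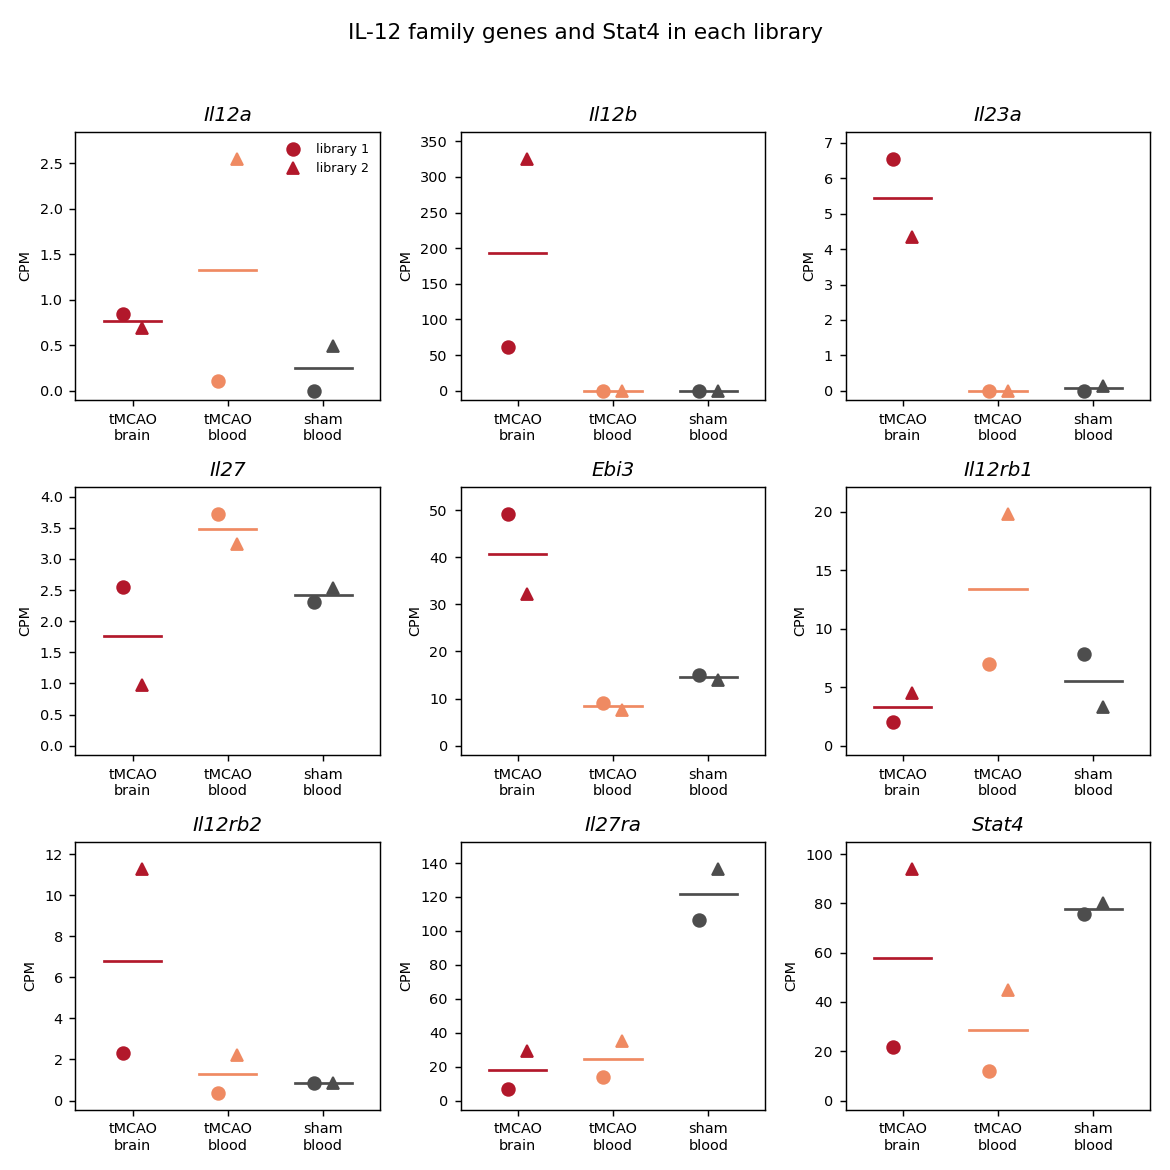
Level of each of the 9 genes in each library, in CPM on a linear axis that differs between panels (circles, library 1; triangles, library 2; bars, mean of the 2 libraries of a group). Il12b and Il23a are near or at 0 outside tMCAO brain, Ebi3 is higher in both brain libraries than in all blood libraries, and Il27ra is highest in both sham blood libraries.

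Il12a (chromosome 3, 68690644 to 68698547, plus strand), encoding the p35 subunit of IL-12, was low. It had 14 and 17 counts (tMCAO brain), 2 and 51 counts (tMCAO blood) and 0 and 7 counts (sham blood). The highest value was in tMCAO blood library 2, at 2.54 CPM, and the other 5 libraries lay between 0 and 0.847 CPM. It did not pass in any comparison (edgeR adjusted p = 0.781 between brain and blood of tMCAO mice, 0.587 between tMCAO brain and sham blood, 0.397 between the blood groups).

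Il27 (chromosome 7, 126589010 to 126594941, minus strand), encoding the p28 subunit of IL-27, was low and passed the test in no comparison. Its levels were 2.54 and 0.980 CPM (tMCAO brain), 3.72 and 3.24 CPM (tMCAO blood) and 2.31 and 2.53 CPM (sham blood). Both brain libraries lay below both tMCAO blood libraries, with a log2 change of -0.99 ± 0.69 (edgeR adjusted p = 0.386), and they overlapped sham blood (-0.47 ± 0.69, edgeR adjusted p = 0.698). Its exons overlap those of Apobr on the opposite strand.

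Subunit balance was compared per kilobase of exon, since counts grow with gene length. Il12b stood at 31.1 and 165 CPM per kb in tMCAO brain, 62.5 and 404 times the per-kilobase level of its IL-12 partner Il12a in the same libraries and 10.7 and 85.6 times that of its IL-23 partner Il23a. Ebi3 stood at 17.1 and 29.0 times the per-kilobase level of Il27 in tMCAO brain, against 2.15 and 2.08 times in tMCAO blood and 5.78 and 4.89 times in sham blood. Ebi3 stood at 85.4 and 68.25 times the per-kilobase level of Il12a, its IL-35 partner, in tMCAO brain, against 123.8 and 4.42 times in tMCAO blood and 41.9 times in sham blood library 2, with Il12a at 0 in library 1. These ratios rest on 14 and 17 counts of Il12a and on 42 and 24 counts of Il27 in the brain libraries, and the Il12a ratios in blood on 2, 51 and 7 counts. In tMCAO brain library 1 the member with the highest level per kilobase was Ebi3 (42.5 CPM per kb), and in library 2 it was Il12b. In tMCAO blood Ebi3 (7.84 CPM per kb) led in library 1 and Stat4 (11.6 CPM per kb) in library 2, and in sham blood Il27ra led (30.5 and 39.0 CPM per kb). The helical subunit genes Il12a, Il23a and Il27 stayed between 0 and 3.64 CPM per kb in every library.

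**Figure D2:**
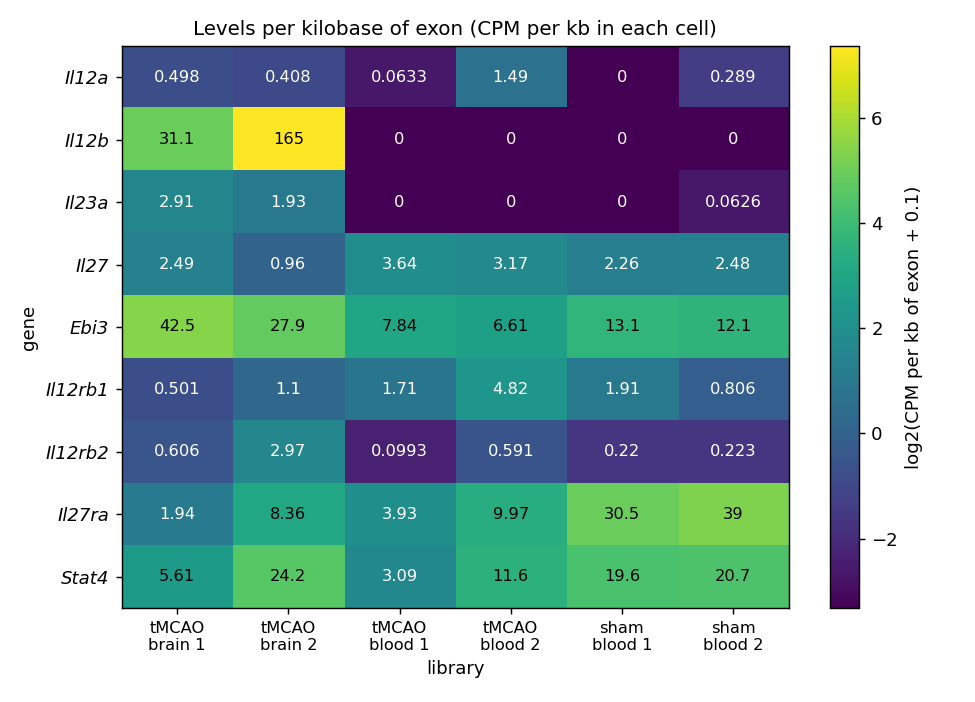
Level of each gene per kilobase of exon in each library, printed in each cell as CPM per kb; colour shows log2 of that value plus 0.1. In tMCAO brain the highest cells are the receptor-like subunit genes Il12b and Ebi3, and in sham blood they are Il27ra and Stat4.

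Of the receptor genes, none passed the edgeR test in any comparison. Il12rb1 (chromosome 8, 70808449 to 70821424, plus strand), the chain shared by the IL-12 and IL-23 receptors, stood at 2.06 and 4.53 CPM (tMCAO brain), 6.999 and 19.8 CPM (tMCAO blood) and 7.83 and 3.31 CPM (sham blood). Both brain libraries lay below both tMCAO blood libraries (log2 change -2.015 ± 0.767, edgeR adjusted p = 0.153), whereas they overlapped sham blood (-0.75 ± 0.75, edgeR adjusted p = 0.555). With no filter on low counts the first difference passed (adjusted p = 0.0257).

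Il12rb2 (chromosome 6, 67291318 to 67376188, minus strand), the IL-12-specific chain that recruits STAT4, was among the lowest members in blood. It stood at 2.30 and 11.3 CPM (tMCAO brain), 0.377 and 2.24 CPM (tMCAO blood) and 0.834 and 0.844 CPM (sham blood). Brain library 2 was well above every blood library, and brain library 1 was only just above tMCAO blood library 2. Against tMCAO blood the log2 change in tMCAO brain was 2.37 ± 1.10 (edgeR adjusted p = 0.221), and against sham blood it was 3.01 ± 1.15 (edgeR adjusted p = 0.14). The second passed by DESeq2 (adjusted p = 0.0476) and with no filter (0.0128). Without tMCAO brain library 2 these changes were 0.81 and 1.445, and without tMCAO blood library 2 the first was 4.13. Its exons overlap those of Serbp1 on the opposite strand.

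Il27ra (chromosome 8, 84030294 to 84042589, minus strand), the IL-27 receptor chain, was lowest where T cell markers were lowest. It stood at 6.78 and 29.2 CPM (tMCAO brain), 13.7 and 34.8 CPM (tMCAO blood) and 106.6 and 136.3 CPM (sham blood). Both sham libraries lay above the 4 libraries of tMCAO mice, and tMCAO brain and tMCAO blood overlapped. Against sham blood the log2 change was -2.75 ± 0.77 in tMCAO brain (edgeR adjusted p = 0.0706) and -2.32 ± 0.76 in tMCAO blood (edgeR adjusted p = 0.105), and with scaling to T cell markers these changes were 0.455 and 0.014. Both passed by DESeq2 (adjusted p = 0.00211 and 0.0131), with the replicate number as a block (0.0162 and 0.0354) and with no filter (1.4e-09 and 5.61e-07). By limma-voom the first passed (adjusted p = 0.0451) and the second did not (0.0713). The second passed with only those 2 groups fitted (edgeR adjusted p = 0.0466), and the first did not (0.0552). Without tMCAO brain library 2 the first log2 change was -4.16. Its exons overlap those of Palm3 on the opposite strand.

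Stat4 (chromosome 1, 51987148 to 52107189, plus strand), the transcription factor activated by IL-12, stood at 21.7 and 93.8 CPM (tMCAO brain), 11.95 and 45.0 CPM (tMCAO blood) and 75.7 and 80.0 CPM (sham blood). The brain libraries lay on either side of the sham libraries, and both tMCAO blood libraries lay below them. No comparison passed (edgeR adjusted p = 0.447 between brain and blood of tMCAO mice, 0.767 between tMCAO brain and sham blood, 0.285 between the blood groups). With no filter on low counts the last of these passed (edgeR adjusted p = 0.00391). Without tMCAO brain library 2 the log2 change against tMCAO blood was -0.39, and with all libraries it was 1.02 ± 0.82. Exons of Stat4 overlap those of Gm28177 on the same strand.

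Since T cell markers differed so much between libraries, the receptor genes and Stat4 were also set against them. Per 1000 counts of the 17 T cell markers, Stat4 had 59.96 and 59.6 counts (tMCAO brain), 16.1 and 11.6 (tMCAO blood) and 8.46 and 8.96 (sham blood). Il12rb2 had 6.35 and 7.16 counts on this scale (tMCAO brain), 0.509 and 0.5755 (tMCAO blood) and 0.0932 and 0.0946 (sham blood). For both genes the brain libraries lay close together and above all blood libraries, although their CPM differed several-fold within the brain group. This closeness was not limited to receptor genes and Stat4. The cytokine subunit gene Il12b had 168.9 and 206 counts on this scale (tMCAO brain) and 0 in every blood library. The other cytokine subunit genes, Il12a, Il23a, Il27 and Ebi3, lay several-fold apart between the brain libraries, Ebi3 at 135.5 and 20.41. What lay behind the closeness was not tested. Il27ra had 18.7 and 18.5 counts on this scale (tMCAO brain), 18.5 and 8.94 (tMCAO blood) and 11.9 and 15.3 (sham blood), and the brain libraries lay above the sham libraries while tMCAO blood spanned the range of sham blood. Il12rb1 had 5.68 and 2.88 counts (tMCAO brain), 9.45 and 5.08 (tMCAO blood) and 0.875 and 0.370 (sham blood).

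On this scale nearly every gene shifts, because the T cell markers took a smaller share of counts in the tMCAO groups. With all libraries scaled to these markers in edgeR, the median log2 change of all genes tested in tMCAO brain was 1.14 against tMCAO blood and 3.97 against sham blood. Stat4 then had log2 changes of 2.11 ± 1.58 (edgeR adjusted p = 0.746) and 2.78 ± 1.625 (edgeR adjusted p = 0.107) in these comparisons, the second below the shift of all genes. Il12rb2 had log2 changes of 3.63 ± 1.74 (edgeR adjusted p = 0.39) and 6.14 ± 1.95 (edgeR adjusted p = 0.0113), and Il12b still passed in both (0.00115 and 2.09e-05). Under this scaling 2.55% and 52.3% of all genes tested were called in these comparisons. The 8 markers of natural killer and CD8 T cells, cells that also use IL-12 receptors, made up 0.00953% and 0.102% (tMCAO brain), 0.0227% and 0.0718% (tMCAO blood) and 0.0141% and 0.0200% (sham blood) of counts, and their part in these values was not tested.

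**Figure D3:**
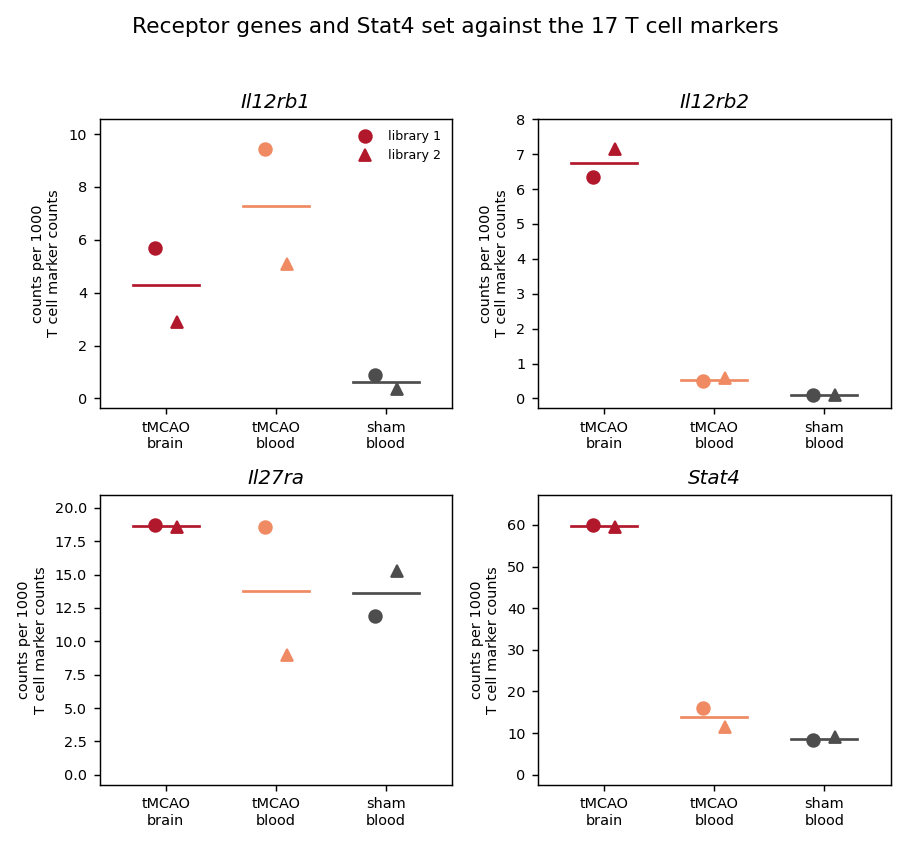
Counts of each receptor gene and of Stat4 per 1000 counts of the 17 T cell markers in each library, on a linear axis that differs between panels (circles, library 1; triangles, library 2; bars, mean of the 2 libraries). Il12rb2 and Stat4 are highest in both tMCAO brain libraries, and Il27ra lies between 8.94 and 18.7 in all groups.

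Counted over the family, 3 of the 9 members rose and none fell in tMCAO brain against tMCAO blood, where 4.90% of 16657 genes tested were called, 3.53% higher and 1.37% lower. In tMCAO brain against sham blood the same 3 rose and none fell, beside 10.6% of all genes (8.01% higher, 2.62% lower). These comparisons share the tMCAO brain libraries, so their calls are not independent. In tMCAO blood against sham blood, 0 of the 9 were called in edgeR, beside 7.48% of all genes (4.33% higher, 3.15% lower), and 1 of them, Il27ra, had an unadjusted p below 0.05 (0.0208). For that comparison DESeq2 called 1, limma-voom 0, edgeR with the replicate block 1 and edgeR with no filter 2. Of all genes tested, these settings called 22.7%, 6.88%, 7.91% and 11.6%. The median log2 change of the members was 1.02 in tMCAO brain against tMCAO blood and 1.48 in tMCAO brain against sham blood, against 0.06 and 0.09 for all genes tested. Putting Il12b, or Il23a against tMCAO blood, at the lower bound could not move the members' medians, because both genes lie above them either way. By the values alone, with no test, the groups of 6 members did not overlap in tMCAO brain against tMCAO blood (4 above, 2 below), beside 57.3% of all genes tested (31.4% above, 25.9% below). In tMCAO brain against sham blood 5 members lay above and 1 below, beside 64.6% of all genes (34.9% above, 29.7% below), and in tMCAO blood against sham blood 1 lay above and 3 below, beside 64.0% (33.6% above, 30.4% below). All 9 members passed the filter on low counts, Il12b and Il23a only through the brain libraries, so their presence among the genes tested already required a difference. The count in tMCAO brain against tMCAO blood was 0 without either tMCAO blood library or either sham library and 1 without either brain library. It was 0 when only these 2 groups were fitted, where 26 genes of 16024 were called in all. The count in tMCAO brain against sham blood was 0 without either sham library, where no gene of all tested was called in either comparison with sham blood, and 1 without tMCAO brain library 1. Without library 1 of both tMCAO groups, the 2 with the smallest T cell marker share, a setting chosen after the data were seen, 5 members were called in tMCAO brain against tMCAO blood, 5 in tMCAO brain against sham blood and 2 in tMCAO blood against sham blood. Each tMCAO group then held 1 library, assumed to vary like the sham libraries, with 1 residual degree of freedom over 4 libraries, and 19.9%, 27.4% and 21.2% of 18181 genes were called in these comparisons.

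**Figure D4:**
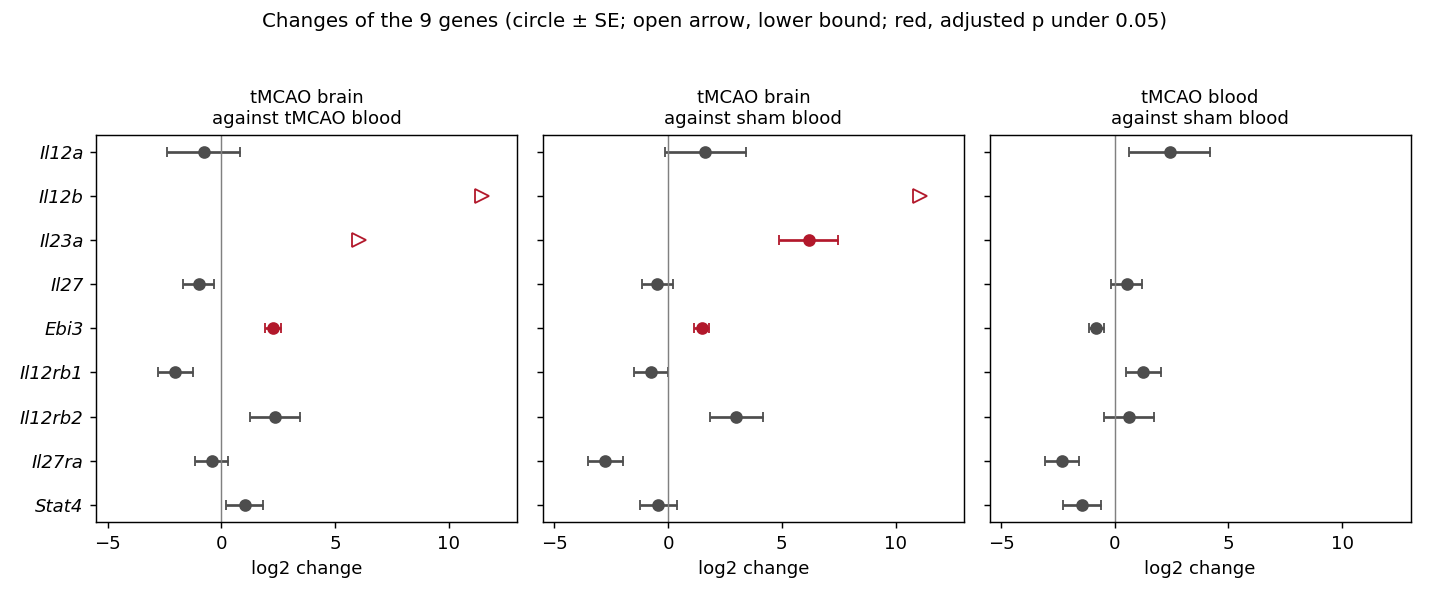
Log2 change of each gene in the 3 comparisons from the edgeR fit of all 6 libraries (circles with bars, change ± SE; open arrows, lower bound from a floor of 3 counts where the second group was at 0; red, adjusted p under 0.05). Il12b, Il23a and Ebi3 are higher in tMCAO brain in both of its comparisons, and no gene passes in tMCAO blood against sham blood; genes at or under the floor in both groups have no symbol.

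Genes with patterns like those of the members were found by the root mean square difference of mean-centred log2 CPM over the 6 libraries, among genes averaging at least 5 CPM. Fscn1, which bundles actin in mature dendritic cells, was nearest to Il12b, with a difference of 0.51. It stood at 41.1 and 172 CPM (tMCAO brain), 0 and 0 CPM (tMCAO blood) and 0 and 0.0704 CPM (sham blood). Next came Ptgds, encoding a prostaglandin D synthase, and Tspan7, a tetraspanin (0.86 each). The genes most like Il23a were Tnf (0.48), Rnf180 (0.55) and the macrophage growth factor gene Csf1 (0.56), and those most like Ebi3 were Mob3c (0.18), Ggcx (0.21) and Ndel1 (0.21). Il27ra was nearest to Bicdl1 (0.23), Gimap6, a GTPase gene of lymphocytes (0.24), and Acsbg1 (0.25), and Stat4 to Dtnb (0.21), Nqo1 (0.24) and Ighm, the IgM heavy chain gene (0.25). Il12rb2 was nearest to Gpm6b (0.27), Padi2 (0.38) and Cdkn1c (0.42), Il12rb1 to Cerkl (0.198), Dcaf15 (0.247) and Stmn1 (0.250), Il27 to Pfdn6 (0.085) and Irgm2 (0.121), and Il12a to Cmtm4 (0.849), Bank1 (0.849) and Sema6d (0.881).

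Of 11 dendritic cell markers tested, 6 rose in tMCAO brain against tMCAO blood and none fell, among them Flt3 with 30.9 and 121 CPM (tMCAO brain) against 1.40 and 1.395 CPM (tMCAO blood) and Cd209a with 61.8 and 65.9 CPM (tMCAO brain) against 3.82 and 6.38 CPM (tMCAO blood). Of 10 microglia markers 9 rose and none fell. Of all genes tested, 3.53% rose and 1.37% fell in this comparison. Among the called markers, Fscn1, Ccl22, Sall1 and Sparc passed the filter on low counts only through the brain libraries. Of 10 monocyte and macrophage markers none was called in edgeR, with 5 at an unadjusted p below 0.05, while DESeq2 called 4 higher and 1 lower and limma-voom 3 higher and 1 lower. Of all genes, DESeq2 called 20.8% and limma-voom 8.68%. Per 1000 counts of the microglia, monocyte and macrophage markers together, Ebi3 had 0.965 and 1.36 counts (tMCAO brain), 0.328 and 0.973 (tMCAO blood) and 2.14 and 2.37 (sham blood). Its order of groups on that scale differs from the order in CPM, with sham blood highest. What these cell types contributed to the Il12b, Il23a and Ebi3 counts was not tested.

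A list of 16 genes linked to control of this family's cytokine genes in myeloid cells (the list labelled inducers) was tested in full. Whether each gene raises or lowers these cytokines was not tested. In tMCAO brain against tMCAO blood 3 of them rose, 1 fell and 12 did not pass, with a median log2 change of 0.76. Of all genes tested, 4.90% were called in this comparison, 3.53% higher and 1.37% lower. The shares were 10.6% in tMCAO brain against sham blood and 7.48% in tMCAO blood against sham blood. Rel, the NF-kB subunit needed for Il12b transcription in mouse macrophages, rose to 253.5 and 480.0 CPM (tMCAO brain), against 38.2 and 52.8 CPM (tMCAO blood; log2 change 3.01 ± 0.41, edgeR adjusted p = 0.0248). Irf8, a transcription factor of dendritic cells and microglia, rose to 409 and 404 CPM (tMCAO brain), against 90.7 and 72.1 CPM (tMCAO blood; 2.32 ± 0.30, edgeR adjusted p = 0.0223). Nfkb2 rose by 2.28 ± 0.41 on the log2 scale (edgeR adjusted p = 0.0392). Cebpb, a factor of inflammatory macrophages, fell to 19.5 and 22.2 CPM (tMCAO brain), against 168 and 79.9 CPM (tMCAO blood; -2.57 ± 0.44, edgeR adjusted p = 0.035). Leaving out 1 library ended these calls in 4 cases for Rel (adjusted p = 0.0667 to 0.0879), 5 for Irf8 (0.0506 to 0.083), 6 for Nfkb2 (0.0676 to 0.11) and 5 for Cebpb (0.0753 to 0.112) out of 6 libraries. All 4 were also lost with scaling to T cell markers (adjusted p = 0.399 to 0.785) and with only these 2 groups fitted (0.0768 to 0.0839). Against sham blood 6 of the 16 rose in tMCAO brain and none fell, with Irf8 (3.76 ± 0.32), Rel (2.77 ± 0.41), Spi1 (1.99 ± 0.41) and Nfil3 (4.06 ± 0.85) among them, and each of these 4 calls was lost without either sham library (0.0979 to 0.27), that of Spi1 also without tMCAO brain library 1 (0.0942) and that of Nfil3 without tMCAO brain library 2 (0.0763) and by limma-voom (0.0591). In tMCAO blood against sham blood Cebpb (4.38 ± 0.48, edgeR adjusted p = 0.0313) and Irf8 (1.44 ± 0.29, edgeR adjusted p = 0.0418) rose and none fell. Both calls were lost without tMCAO blood library 1 (0.0711 and 0.123) or either sham library (0.192 to 0.292), and that of Irf8 without either brain library too (0.0571 and 0.0559), with the replicate block (0.053) and with scaling to T cell markers (0.113).

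Among 11 receptor partners, kinases and feedback genes, 10 were tested. In tMCAO brain against tMCAO blood, beside 4.90% of all genes, the only one called was Socs3, a feedback inhibitor of cytokine signalling. It rose to 91.05 and 134.6 CPM (tMCAO brain), against 18.03 and 10.9 CPM (tMCAO blood; log2 change 2.96 ± 0.52, edgeR adjusted p = 0.0372), a call lost without any 1 library (0.0688 to 0.124), with scaling to T cell markers (0.402) and with only these 2 groups (0.0727). None of the 10 was called in the other comparisons in edgeR. At an unadjusted p below 0.05 there were 3 in tMCAO brain against sham blood and 4 in tMCAO blood against sham blood, where DESeq2 called 2 and 4 and limma-voom 0 and 1. In these 2 comparisons edgeR called 10.6% and 7.48% of all genes, DESeq2 24.1% and 22.7%, and limma-voom 11.3% and 6.88%. Il23r, the IL-23-specific receptor chain, named after its values were seen, stood at 1.03 and 7.39 CPM (tMCAO brain) and at 0 counts in all 4 blood libraries, and it did not pass (edgeR adjusted p = 0.08 against tMCAO blood and 0.07 against sham blood). Jak1, the kinase of gp130, stood at 318.5 and 380 CPM (tMCAO brain), 309.7 and 358 CPM (tMCAO blood) and 648 and 599.9 CPM (sham blood). Stat3 stood at 217 and 277 CPM (tMCAO brain), 137.5 and 114 CPM (tMCAO blood) and 149.9 and 184 CPM (sham blood).

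Of 14 type 1 genes downstream of IL-12 and STAT4, all tested, none was called in tMCAO brain against tMCAO blood in edgeR, where 4 had an unadjusted p below 0.05 and DESeq2 called 3 and limma-voom 1. Of all genes, edgeR called 4.90%, DESeq2 20.8% and limma-voom 8.68%. Ifng, encoding interferon-gamma, was named after its values were seen and stood at 2.30 and 7.93 CPM (tMCAO brain), 1.99 and 1.45 CPM (tMCAO blood) and 0.834 and 2.74 CPM (sham blood). Tbx21, encoding the type 1 factor T-bet and named likewise, stood at 0.726 and 13.4 CPM (tMCAO brain), 1.94 and 8.52 CPM (tMCAO blood) and 1.67 and 2.11 CPM (sham blood). In tMCAO brain against sham blood 3 of the 14 rose and none fell, beside 10.6% of all genes called in edgeR. In tMCAO blood against sham blood 2 rose and none fell, beside 7.48% of all genes. Among those called, Hlx (log2 change 5.11 ± 0.74, edgeR adjusted p = 0.0158) and Map3k8 (1.90 ± 0.44, edgeR adjusted p = 0.0468) rose in tMCAO brain against sham blood, and Furin (1.90 ± 0.34, edgeR adjusted p = 0.036) rose in tMCAO blood against sham blood. These 3 calls were lost without either sham library (adjusted p = 0.134 to 0.3), and that of Furin also without tMCAO blood library 1 (0.114) and with scaling to T cell markers (0.0614). The Map3k8 call was also lost without either brain library (0.108 and 0.101), with the replicate block (0.0531) and with DESeq2 size factors (0.052).

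Of 8 genes that IL-27 induces in T cells, 7 were tested, and Lag3, Havcr2 and Cd274 rose in tMCAO brain against tMCAO blood while none fell. Of all genes tested, 3.53% rose and 1.37% fell there, and against sham blood 8.01% rose and 2.62% fell in tMCAO brain. Lag3, an inhibitory receptor of T cells that microglia also transcribe, stood at 62.8 and 44.4 CPM (tMCAO brain), 0.215 and 0.449 CPM (tMCAO blood) and 0.385 and 0.985 CPM (sham blood; log2 change 7.30 ± 0.66 against tMCAO blood, edgeR adjusted p = 0.0148). That call held without any 1 of the 6 libraries. However, Lag3, like Il10 below, passed the filter on low counts only with the brain libraries. Its presence among the genes tested thus already required a high level there. Havcr2, encoding the checkpoint receptor TIM-3, rose by 2.80 ± 0.34 on the log2 scale (edgeR adjusted p = 0.0205), and Cd274, encoding PD-L1, by 1.55 ± 0.29 (edgeR adjusted p = 0.0422). Whether T cells or other cells gave the RNA of Lag3, Havcr2 and Cd274 was not tested. The Havcr2 call was lost without any 1 library except tMCAO brain library 1 (0.0528 to 0.0661), and that of Cd274 without any 1 (0.074 to 0.14) and with the replicate block (0.0536). Both were lost with scaling to T cell markers (0.381 and 0.684) and with only these 2 groups (0.0617 and 0.107). Against sham blood these 3 genes and Il10 rose in tMCAO brain, calls lost without either sham library (0.0979 to 0.215), those of Cd274 and Il10 also without tMCAO brain library 1 (0.0691 each), and that of Il10 by limma-voom (0.0686). In tMCAO blood against sham blood none of the 7 was called in edgeR, with 1 at an unadjusted p below 0.05 and 1 call each by DESeq2 and limma-voom. Of all genes, edgeR called 7.48%, DESeq2 22.7% and limma-voom 6.88% in that comparison. Of 9 type 17 genes linked to IL-23, 6 were tested. In edgeR none was called in tMCAO brain against tMCAO blood or in tMCAO blood against sham blood (2 in each at an unadjusted p below 0.05, 1 in each by DESeq2, 0 in each by limma-voom). Of all genes, edgeR called 4.90% and 7.48% in these comparisons, DESeq2 20.8% and 22.7%, and limma-voom 8.68% and 6.88%. The sole call, in tMCAO brain against sham blood beside 10.6% of all genes, was Batf. It fell to 42.8 and 43.0 CPM (tMCAO brain) against 102.5 and 145 CPM (sham blood), a log2 change of -1.525 ± 0.288 with edgeR adjusted p = 0.0281. The call was lost without either brain or either sham library (0.0837 to 0.222). With scaling to T cell markers its log2 change was 2.395. Il17a, which did not pass the filter on low counts and was named after its values were seen, stood at 0 and 8.99 CPM (tMCAO brain) and at 0 counts in all 4 blood libraries.

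**Figure D5:**
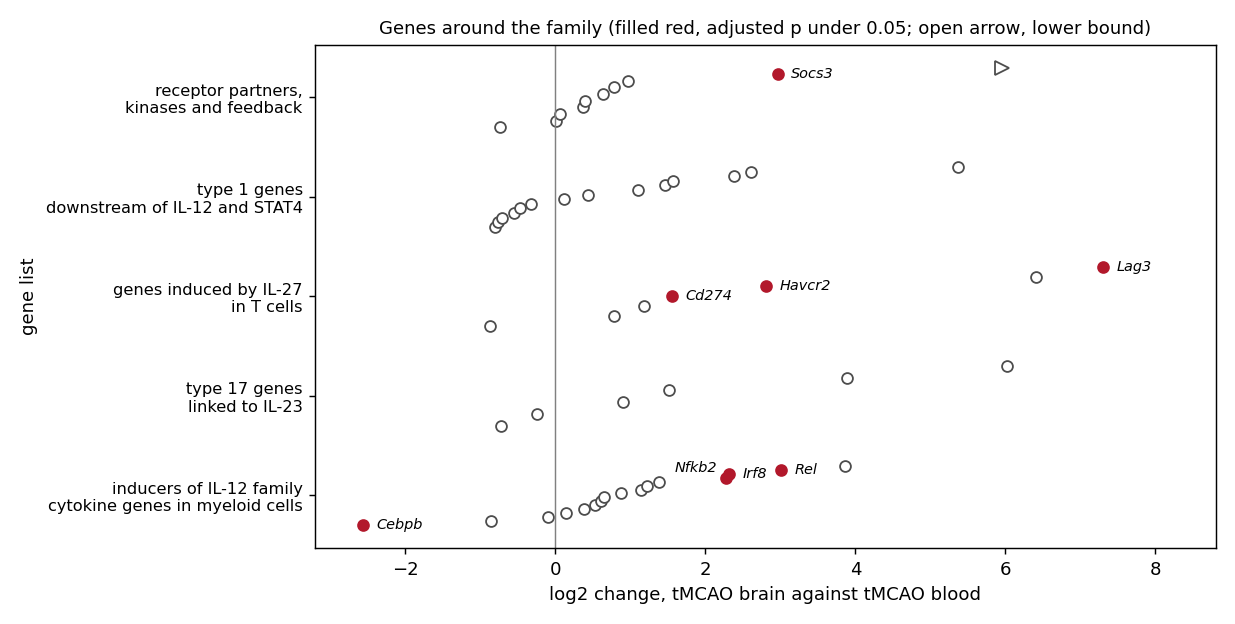
Log2 change in tMCAO brain against tMCAO blood of each tested gene in 5 lists of genes around the family (filled red circles, adjusted p under 0.05; open circles, not called; open arrow, lower bound for Il23r, which was at 0 in tMCAO blood). Called genes lie among the receptor partners, the IL-27-induced genes and the list labelled inducers, and 7 of the 8 called genes lie above 0. Over all genes tested, 3.53% were called higher and 1.37% lower.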

How the data were processed

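Messenger RNA of sorted cells was sequenced in 6 libraries, 2 in each of 3 groups. Per the labels' protocols, cDNA came from a SMART-Seq ultralow input kit and libraries from Nextera XT, without molecular identifiers, so that bounds from counts hold no error but that of counting. The deposited values are read counts per gene that, per the submitters' processing notes, the authors made with STAR and HTSeq 0.11.2 on GRCm38; annotation release and strand setting are not stated in the sources.

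Genes were kept by filterByExpr with a minimum count of 10, which left 16657 of 51361, and all 6 libraries entered 1 edgeR 4.0.16 quasi-likelihood fit (R 4.3.3, TMM scaling, 3 residual degrees of freedom). A gene was called at an adjusted p below 0.05, with Benjamini-Hochberg adjustment over all genes tested. CPM used the TMM-scaled library size, and SE is the log2 change over the square root of F. A floor of 3 counts over a group stood for groups at 0. Limma-voom 3.58.1 and DESeq2 1.42.0 were alternatives, beside other scalings and filters, fits of only the 2 groups compared, a replicate block and leaving out libraries. Scripts were tested on simulated data. Exon lengths came from GENCODE M21 and promoters from RefSeq.

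The members and gene lists were chosen with earlier results of these data known. List genes were named where called, otherwise by abundance, and for each of the members the 3 genes of nearest pattern were found; a few genes that these rules named are not reported here.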

Additional observations from a re-analysis of the deposited data

How the results depend on the processing

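Of the members' log2 changes under the alternatives, 286 kept direction and side of the threshold, 35 lost a call, 21 gained one and 21 changed sign, 10 of these with scaling to T cell markers. For the named genes of the lists these numbers were 252, 107, 0 and 1. The cause was not tested. The member counts below stand beside these shares of all genes called. In tMCAO brain against sham blood, scaling to T cell markers called 52.3%, no filter 14.3% and DESeq2 24.1%. In tMCAO blood against sham blood, DESeq2 called 22.7%, the replicate block 7.91%, only the 2 groups 11.7% and no filter 11.6%. In tMCAO brain against tMCAO blood, the count of members called, 3 with all libraries, was 0 when only the 2 groups were fitted, 0 to 1 when 1 library was left out and 5 without both tMCAO libraries numbered 1. In tMCAO brain against sham blood it was 5 with scaling to T cell markers, with no filter, by DESeq2 and without both tMCAO libraries numbered 1, and 0 to 3 when 1 library was left out. In tMCAO blood against sham blood, where the count was 0, it was 1 by DESeq2, with the replicate block and with only the 2 groups, and 2 with no filter or without both tMCAO libraries numbered 1. That last setting kept 1 library in each tMCAO group and 1 residual degree of freedom, and called 2155 higher and 1454 lower of all genes in tMCAO brain against tMCAO blood, 3219 and 1760 in tMCAO brain against sham blood and 2032 and 1818 in tMCAO blood against sham blood.

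Scaling to T cell markers, which moved the median of all genes to 1.14, 2.89 and 3.97 (tMCAO brain against tMCAO blood, tMCAO blood against sham blood, tMCAO brain against sham blood), gave log2 changes of opposite sign in tMCAO brain against tMCAO blood for Il12a (1.68), Il27 (0.37) and Il27ra (0.44). In tMCAO blood against sham blood it did so for Ebi3 (2.115), Il27ra (0.014) and Stat4 (0.67). In tMCAO brain against sham blood it did so for Il27 (3.78), Il12rb1 (2.77), Il27ra (0.455), Stat4 (2.78) and Batf (2.395). Ebi3 lost its call in tMCAO brain against tMCAO blood under that scaling (edgeR adjusted p = 0.401). Il12a in tMCAO brain against tMCAO blood also turned by limma-voom (0.36). Stat4 in tMCAO brain against sham blood turned without both tMCAO libraries numbered 1 (0.24). With 1 library left out, log2 changes in tMCAO brain against tMCAO blood ranged from -1.72 to 2.75 for Il12a, -1.835 to 0.38 for Il27ra and -0.39 to 2.26 for Stat4. In tMCAO blood against sham blood they ranged from -1.13 to 7.67 for Il12a and -1.14 to 1.41 for Il12rb2. Against sham blood, those of tMCAO brain ranged from -1.31 to 0.069 for Il27 and -1.84 to 0.26 for Stat4.

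Replicate numbers did not pair the libraries by any label, and same-numbered deviations correlated at 0.30, -0.07 and -0.03 (tMCAO brain with tMCAO blood, tMCAO blood with sham blood, tMCAO brain with sham blood). With the replicate block 2, 1 and 3 members were called in these comparisons, and Il12a in tMCAO brain against tMCAO blood had a log2 change of 0.66. In blood, Il12b and Il23a had 0 to 2 counts a library, under the floor of 3 counts.

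Over all genes tested, 588 higher and 228 lower calls (tMCAO brain against tMCAO blood), 1335 and 437 (tMCAO brain against sham blood) and 722 and 524 (tMCAO blood against sham blood) were made. In the same order of comparisons they were 391 and 34, 8649 and 58, and 1370 and 3 with scaling to T cell markers, 2407 and 1191, 3211 and 1247, and 2089 and 1522 with no filter, and 2099 and 1370, 2603 and 1404, and 2065 and 1724 by DESeq2. For tMCAO brain against tMCAO blood they were 997 and 449 by limma-voom, 808 and 429 with the stricter filter and 22 and 4 with only the 2 groups, and in tMCAO brain against sham blood 1892 and 860 with only the 2 groups. By limma-voom they were 524 and 622 in tMCAO blood against sham blood. With 1 library left out they ranged from 25 and 6 (without either sham library) to 253 and 60 (without tMCAO brain library 1) in tMCAO brain against tMCAO blood. In tMCAO brain against sham blood they ranged from 0 and 0 (without either sham library) to 1474 and 606, and in tMCAO blood against sham blood from 0 and 0 (without either sham library or tMCAO blood library 1) to 824 and 416.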
